A study of Mus musculus with 7 samples.

Results

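The DNA replication machinery described here is a set of 51 genes, a list of names with no threshold on values, out of 19938 genes measured by 1 probe set each. It holds 9 genes of origin licensing, 14 of the helicase and its activation, 9 of the polymerases, 11 of the clamp, single-strand binding and strand maturation, 4 of nucleotide supply and 4 of chromatin assembly and histone supply. All 51 had a probe set whose only gene symbol was theirs. For the 4 with several such probe sets the one with the highest mean over the 7 arrays was used.

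The samples were 3 of Trnp1 knockdown and 4 of control (genotype WT in the labels), each on 1 array. Both came from the cerebral cortex of C57BL/6 mouse embryos of undetermined sex, which were electroporated at E13 with constructs that also encode GFP. GFP-positive cells were sorted 24 h later, at E14. Trnp1 is a nuclear factor made in cortical progenitors, and the arrays were set up to find transcripts that its knockdown alters within a day. Each sample is labelled a biological replicate. The labels give neither the number of embryos in a sample nor the promoter of the constructs, and the sort keeps every cell type that took up a construct.

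To copy its DNA, a cell marks origins with the origin recognition complex, loads the ring of Mcm2 to Mcm7 onto them, and turns that ring into a moving helicase when the Cdc7 kinase, Cdc45 and the GINS complex join it. Polymerases held on the DNA by the Pcna clamp then copy both strands, and chromatin assembly factors put histones behind the fork. Many of these genes are transcribed under E2F factors as a cell passes from G1 into S phase. Within the cortical lineage of the embryo the dividing cells are radial glia and intermediate progenitors, while neurons have left the cell cycle. The level of these transcripts in sorted cells thus depends on both the share of dividing cells, of any type, and the RNA in each. In bulk samples fewer cells of a type and less RNA per cell cannot be told apart.

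The promoters of these genes were searched for 2 forms of the E2F motif, TTCCCGC and TTGGCGC, on both strands and with overlaps counted. RefSeq promoter sequences (GRCm38.p6, 250 bases before to 50 bases after the start) were at hand for 43 of the 51 genes, as 52 promoters. Of these, 27 held a match (51.9%), against 6.81% of all 32851 promoters of the same length. Over the 19116 promoters of genes tested here the share was 9.27%. The replication promoters were also richer in G and C, with a median of 62.3%, against 52.7% over all promoters and 57.7% over those of genes tested. Among promoters of 60% to 70% G and C the shares with a match were 63.0% (17 of 27 replication promoters) and 13.5% (all promoters). A further 8 genes (Gins1, Gins2, Gins4, Gmnn, Mcm4, Pole, Prim2 and Rfc2) were not in the promoter table. The promoters of 3 genes with a match and 2 genes without one are printed here, 5′ to 3′ on the strand of the gene, with matches in capitals, because they belong to genes whose array values are described next. They are those of Mcm6 (chr1:128359656-128359955, minus strand), Mcm5 (chr8:75109259-75109558, plus strand), Pola1 (chrX:93632106-93632405, minus strand), Orc1 (chr4:108579204-108579503, plus strand) and Slbp (chr5:33652525-33652824, minus strand).
Mcm6: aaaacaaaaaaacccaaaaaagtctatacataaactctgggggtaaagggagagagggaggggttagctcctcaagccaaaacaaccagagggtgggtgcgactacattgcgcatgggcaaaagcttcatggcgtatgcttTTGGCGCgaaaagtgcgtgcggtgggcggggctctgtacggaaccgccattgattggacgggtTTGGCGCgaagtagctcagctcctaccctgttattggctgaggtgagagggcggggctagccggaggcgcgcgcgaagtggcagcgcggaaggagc
Mcm5: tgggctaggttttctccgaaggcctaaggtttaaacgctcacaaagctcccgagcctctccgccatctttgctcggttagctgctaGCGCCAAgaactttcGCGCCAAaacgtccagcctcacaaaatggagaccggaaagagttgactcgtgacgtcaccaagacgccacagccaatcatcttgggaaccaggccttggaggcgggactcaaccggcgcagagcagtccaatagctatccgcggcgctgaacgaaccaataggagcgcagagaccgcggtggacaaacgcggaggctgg
Pola1: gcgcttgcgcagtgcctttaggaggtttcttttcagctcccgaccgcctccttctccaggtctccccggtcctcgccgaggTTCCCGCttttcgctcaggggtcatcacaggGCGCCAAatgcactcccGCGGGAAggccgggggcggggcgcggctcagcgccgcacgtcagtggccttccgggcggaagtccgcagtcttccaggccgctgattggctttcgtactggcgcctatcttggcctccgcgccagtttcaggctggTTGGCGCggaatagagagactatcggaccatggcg
Orc1: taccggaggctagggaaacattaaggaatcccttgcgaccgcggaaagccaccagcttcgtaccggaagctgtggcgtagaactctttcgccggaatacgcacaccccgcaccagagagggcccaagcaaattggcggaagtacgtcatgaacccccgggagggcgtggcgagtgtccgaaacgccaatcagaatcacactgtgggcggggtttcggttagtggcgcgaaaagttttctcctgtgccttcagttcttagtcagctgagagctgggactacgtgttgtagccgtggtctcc
Slbp: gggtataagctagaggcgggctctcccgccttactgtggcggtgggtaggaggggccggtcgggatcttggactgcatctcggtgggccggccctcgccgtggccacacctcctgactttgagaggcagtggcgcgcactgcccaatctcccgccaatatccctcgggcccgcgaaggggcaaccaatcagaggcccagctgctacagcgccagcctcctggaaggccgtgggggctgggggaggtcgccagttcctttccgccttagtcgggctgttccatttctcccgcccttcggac
The matches in the Mcm6 promoter lie 109 and 46 bases before the start, and those of Mcm5 lie close together at 164 and 149 bases before it. Pola1 has 4 matches, 3 of them before the start. The windows of Orc1 and Slbp hold none of these letters, which says nothing of E2F at those genes.

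No replication gene passed the test between knockdown and control samples. By limma with Benjamini-Hochberg adjustment over all genes, 0 of 51 members had an adjusted p under 0.05, beside a share of 0% of all genes, and the lowest adjusted p of a member was 0.825. An unadjusted p under 0.05 was reached by 3 members (5.88%), 2 lower and 1 higher, where 5.81% of all 19938 genes were past the same mark (3.61% lower and 2.2% higher). The same 3 genes, Orc1, Slbp and Orc4, were the ones whose groups did not overlap, against 5.67% of all genes (3.07% lower and 2.59% higher). These shares are close to those over all genes, many of which are dimmer than the members. Among the 6130 genes of a mean log2 level of 6 to 9, 474 were lower and 129 higher at an unadjusted p under 0.05 by limma. Of the 41 members of that level, 1 was lower and 1 higher. The members at an unadjusted p under 0.05 depended on single arrays. With a knockdown array left out there were 1 lower and 1 higher (replicate 1), 3 lower and 0 higher (replicate 2), or 0 of either (replicate 3). With a control array left out there were 2 lower and 0 higher (replicate 1 or 4), 0 lower and 2 higher (replicate 2), or 0 of either (replicate 3). Of the 3 genes, Orc1 and Slbp were past it together without control replicate 1, while without control replicate 4 they were not past it and Gmnn and Rpa3 were.

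The differences, always as log2 level in knockdown minus control samples, ran from -0.54 (Pold2) to 0.35 (Tk1), and their median was -0.12, with 33 of 51 lower. This small shift lay near that of genes of like brightness: the median was -0.11 over the 6130 genes of a mean log2 level of 6 to 9, where 41 of the 51 members lie, and 64.4% of those genes were lower. Over all genes the median was -0.001. After a further quantile normalization or a cyclic loess normalization the members' median was 0.0031 and 0.0025, with 25 of 51 lower in both, so the direction of the group depends on the scaling. It also rests on single arrays. With 1 control array left out, the median was 0.007 (replicate 2) and -0.19 (replicate 1), and with 1 knockdown array left out it was -0.04 (replicate 3), -0.07 (replicate 1) and -0.23 (replicate 2). The median standard error (SE) of a member was 0.26. The 95% interval lay within a change of 2-fold in either direction for 39 of the 51 members (76.5%). The share was 82.9% of all genes and 72.2% of genes of mean level 6 to 9. The widest interval of a member, that of Rfc4, ran from -1.55 to 1.19.

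**Figure D1:**
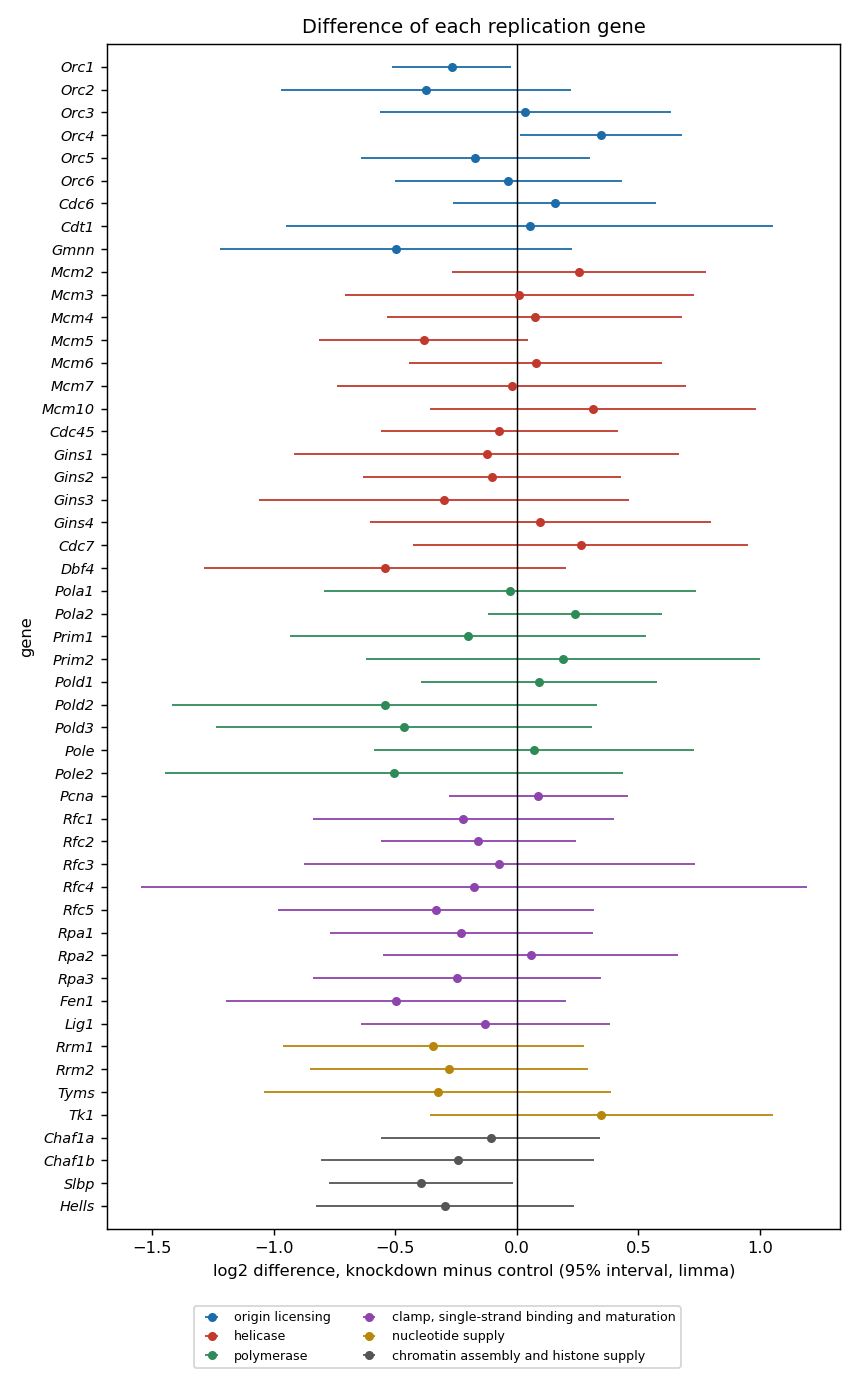
The log2 difference (x axis, knockdown minus control, points) of each of the 51 replication genes (y axis) with limma's 95% interval (lines), coloured by complex. All points lie between -0.54 and 0.35, and only the intervals of Orc1, Orc4 and Slbp leave out 0; with a further quantile normalization the points below 0 were 25 in place of 33.

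Trnp1 itself, the targeted gene, had log2 levels of 4.80, 4.85 and 4.55 in knockdown samples and 5.07, 4.999, 5.24 and 5.22 in controls, in the direction of the labels. Its signal in knockdown samples was 75.8% of that in controls (exact permutation p = 0.0286, two-sided, the smallest that 35 splits can give). In the fit over all genes it did not pass either, with an adjusted p of 0.825 by limma. Across the 35556 probe sets the median of an array was 4.398 to 4.61, so the levels of Trnp1 and Orc1 are dim. Radial glia and intermediate progenitor markers were present in all arrays, among them Sox2 at 8.72 to 9.37 in knockdown and 8.62 to 9.48 in control samples, and Eomes at 9.86 to 10.66 in knockdown and 10.05 to 10.53 in control samples. Of the 9 radial glia markers 5 were lower and 4 higher, and their mean log2 level was 8.31 to 8.70 in knockdown and 8.20 to 8.90 in control samples. Prom1 differed by -0.47 (SE 0.17), Hes1 by -0.45 (SE 0.23) and Vim by 0.29 (SE 0.17). Of the 6 intermediate progenitor markers 4 were lower, among them Sstr2 by -0.65 (SE 0.20), and their mean was 8.56 in knockdown replicate 2, against 9.04 to 9.40 in the other arrays. Some markers of neurons differed more between the groups. Of 9 cortical neuron markers 7 were lower, where 76.5% of all genes of mean level over 8 were lower. An unadjusted p under 0.05 by limma was reached by 4 of the 9, all lower, and by 5.81% of all genes in either direction. Among the 2136 genes of mean level over 8, 222 were lower at that mark. The mean of the 9 markers was 8.85 to 9.29 in knockdown and 9.29 to 9.62 in control samples. Neurod1, a transcription factor of newborn neurons, differed by -1.45 (SE 0.17), with the smallest unadjusted p of all genes (3.931e-05 by limma). Its adjusted p of 0.736 was the lowest over all genes, a value also reached among genes of mean level 6 to 8. The other neuron markers at an unadjusted p under 0.05 were Neurod6 (-0.71, SE 0.13), Neurod2 (-0.59, SE 0.16) and Dcx (-0.52, SE 0.19). Tubb3, Tbr1 and Bcl11b differed by -0.50 (SE 0.28), -0.39 (SE 0.24) and -0.07 (SE 0.20). Stmn2 and Map2 were higher, by 0.33 (SE 0.37) and 0.11 (SE 0.24). Markers of cell types from outside the cortical lineage differed between arrays. The 7 microglia and macrophage markers had a mean log2 level of 6.84 to 8.11 in knockdown and 6.02 to 8.82 in control samples, highest in control replicate 4, and all 7 had a higher mean in knockdown samples. The 7 endothelial and mural markers had 5.23 to 7.40 in knockdown and 4.41 to 6.84 in control samples, highest in knockdown replicate 1 and control replicate 4, and again all 7 had a higher knockdown mean. The 6 GABA neuron markers had 4.66 to 6.82 in knockdown and 4.20 to 4.56 in control samples. Knockdown replicate 2 had the highest mean, with Dlx5 at 8.729 against 4.602 to 4.755 in controls. Dlx5 was also above the controls in knockdown replicates 1 (6.314) and 3 (5.399), as was Gad2 (4.428 and 4.379). Dlx1 and Dlx2 lay above the controls in knockdown replicate 1 (5.375 and 5.611) but within their range in replicate 3 (4.711 and 5.199). Gad1 and Lhx6 lay within the control range in both of these arrays. Gad1 in knockdown replicate 2, at 3.968, lay within the control range (3.424 to 3.984). The 2 measured erythroid markers had 8.02 to 8.62 in knockdown and 7.22 to 8.53 in control samples. RMA values have no 0, so none of these markers is at 0. The part of these cells in the values of the replication genes was not tested.

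Among the genes of origin licensing, Orc1 and Orc4, both subunits of the origin recognition complex, lay apart in opposite directions. Orc1 had log2 levels of 4.19, 4.30 and 4.25 in knockdown samples, against 4.45, 4.45, 4.67 and 4.48 in controls. Every knockdown array lay below every control array, and the difference was -0.27 (SE 0.10), or 83.0% of the control signal, with an adjusted p of 0.825 by limma. Orc4 had 6.36, 6.46 and 6.66 in knockdown samples, against 6.19, 6.35, 6.15 and 5.89 in controls. Here every knockdown array lay above every control array, the closest pair being 6.358 and 6.354, and the difference was 0.35 (SE 0.14). Neither gene passed over all genes.

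The other subunits showed no gap between the groups. Orc2 had 6.19, 6.90 and 6.32 in knockdown samples and 6.83, 6.90, 7.28 and 6.36 in controls, a difference of -0.37 (SE 0.25) with overlapping groups. Orc6 had 8.99, 8.86 and 8.58 in knockdown samples and 8.58, 9.27, 8.93 and 8.61 in controls, a difference of -0.04 (SE 0.20) that turned to 0.11 after a further quantile normalization. Orc3 and Orc5 differed by 0.03 (SE 0.26) and -0.17 (SE 0.20). Cdc6 and Cdt1, the factors that bring the Mcm ring to the origin, differed by 0.16 (SE 0.18) and 0.05 (SE 0.43). Cdt1 spread widely in both groups, from 6.53 to 7.97 in knockdown and from 6.90 to 7.996 in control samples. Geminin (Gmnn), which binds and blocks Cdt1, had 5.52, 6.15 and 5.46 in knockdown samples and 6.33, 6.49, 6.57 and 5.44 in controls. Its groups overlapped only through control replicate 4, the lowest of all 7 arrays, and the difference was -0.50 (SE 0.31), or 70.8% of the control signal. Of the 9 licensing genes 5 were lower and 4 higher, with a median of -0.04, which ranged from -0.20 (without knockdown replicate 2) to 0.11 (without control replicate 2) with 1 array left out and was 0.11 after a further quantile normalization.

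The helicase genes had a median difference of -0.005, with 7 of 14 genes lower and 7 higher and none at an unadjusted p under 0.05. The median was 0.12 after a further quantile normalization, and with 1 array left out it ranged from -0.18 (without knockdown replicate 2) to 0.16 (without control replicate 2). Among the 6 subunits of the ring, Mcm2, Mcm3, Mcm4 and Mcm7 differed by 0.26 (SE 0.22), 0.01 (SE 0.31), 0.07 (SE 0.26) and -0.02 (SE 0.31). Mcm6 had 8.47, 8.92 and 8.68 in knockdown samples and 8.13, 9.05, 8.63 and 8.63 in controls. The knockdown values lay inside the control range, and the difference was 0.08 (SE 0.22), which turned to -0.04 without knockdown replicate 2 and -0.08 without control replicate 1. Mcm5 was the subunit with the smallest p, at 7.11, 7.57 and 6.89 in knockdown samples and 7.75, 7.52, 7.66 and 7.37 in controls, a difference of -0.38 (SE 0.18). Knockdown replicate 2 lay among the controls while the other knockdown arrays lay below them.

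Dbf4, the activating subunit of the Cdc7 kinase that starts origin firing, had 7.01, 8.08 and 6.92 in knockdown samples and 7.92, 8.08, 8.14 and 7.39 in controls. Knockdown replicates 1 and 3 were below all controls while knockdown replicate 2 equalled control replicate 2, and the difference was -0.54 (SE 0.32), or 68.6% of the control signal. Its partner Cdc7 had 6.11, 5.94 and 7.01 in knockdown samples and 5.65, 6.39, 6.31 and 6.01 in controls, a difference of 0.26 (SE 0.29). In knockdown replicate 3 Cdc7 was at its highest of the 7 arrays and Dbf4 at its lowest. The firing factors Cdc45 and Mcm10 differed by -0.07 (SE 0.21) and 0.31 (SE 0.29), and the 4 GINS subunits lay between -0.30 (Gins3) and 0.10 (Gins4).

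The polymerase genes had a median difference of -0.03, with 5 of 9 lower. It was 0.04 after a further quantile normalization, and with 1 array left out it ranged from -0.32 (without control replicate 4) to 0.15 (without control replicate 2). Pold2, an accessory subunit of the lagging-strand polymerase delta, had the lowest difference of all members. Its log2 levels were 7.24, 8.27 and 7.34 in knockdown samples, against 7.89, 8.59, 8.69 and 7.47 in controls. The groups overlapped through knockdown replicate 2, and the difference was -0.54 (SE 0.37). Pold3, another subunit of the same enzyme, had 7.71, 7.58 and 6.78 in knockdown samples and 7.88, 8.42, 7.80 and 7.18 in controls, a difference of -0.47 (SE 0.33). Its catalytic subunit Pold1 differed by 0.09 (SE 0.21), so the accessory and catalytic subunits differed in sign, though within their errors. Pola2, the accessory subunit of polymerase alpha, which starts each strand with its primase, had 6.98, 6.93 and 6.74 in knockdown samples and 6.72, 6.81, 6.30 and 6.76 in controls, a difference of 0.24 (SE 0.15). Prim1, the catalytic subunit of that primase, had 7.89, 8.13 and 7.79 in knockdown samples and 7.98, 8.60, 8.61 and 7.35 in controls, a difference of -0.20 (SE 0.31). Here the control arrays spread more than the knockdown arrays and enclosed them. The remaining subunits Pola1, Prim2 and Pole2 differed by -0.03 (SE 0.33), 0.19 (SE 0.35) and -0.51 (SE 0.40). Pole, the catalytic subunit of the leading-strand polymerase epsilon, had the same deposited value, 6.735, in all 3 knockdown arrays, and 6.73, 7.41, 6.31 and 6.20 in controls.

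**Figure D2:**
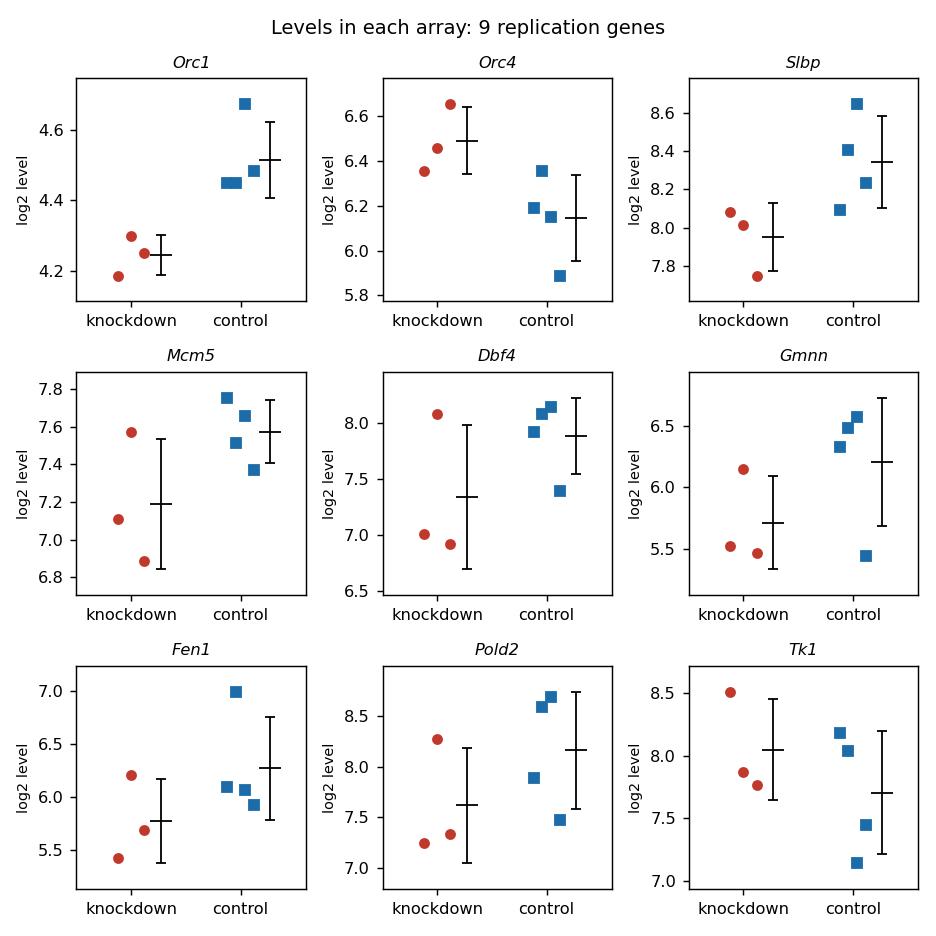
Log2 levels (y axis, a separate scale in each panel, not starting at 0) of 9 replication genes in the 3 knockdown arrays (circles) and the 4 control arrays (squares), with the mean and SD of each group beside them. The groups stand apart for Orc1, Orc4 and Slbp only, and in Mcm5, Dbf4, Gmnn, Fen1 and Pold2 knockdown replicate 2 is the highest knockdown array.

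In the group of the clamp, single-strand binding and maturation, 9 of 11 genes were lower, with a median of -0.18, and none had an unadjusted p under 0.05. The median was -0.05 after a further quantile normalization, and with 1 array left out it ranged from -0.35 (without control replicate 4) to -0.04 (without knockdown replicate 3). Pcna, the sliding clamp, had 10.74, 11.02 and 10.95 in knockdown samples and 10.86, 11.09, 10.81 and 10.50 in controls. The knockdown values lay inside the control range, and the difference was 0.09 (SE 0.16), or -0.02 without control replicate 4. The second Pcna probe set differed by 0.08. Fen1, the nuclease that trims the flaps of Okazaki fragments, had 5.42, 6.20 and 5.69 in knockdown samples and 6.10, 6.99, 6.06 and 5.93 in controls. Knockdown replicate 2 lay among the controls, and the difference was -0.50 (SE 0.30), or 70.8% of the control signal. The 5 subunits of replication factor C, which loads the clamp, lay between -0.33 (Rfc5) and -0.07 (Rfc3), and Lig1, which joins the fragments, differed by -0.13 (SE 0.22). Rfc4 had the largest standard error of all members, with levels from 6.38 to 7.75 in knockdown and from 6.04 to 8.26 in control samples. The single-strand binding proteins Rpa1, Rpa2 and Rpa3 differed by -0.23 (SE 0.23), 0.06 (SE 0.26) and -0.25 (SE 0.25), and a dimmer probe set of Rpa3 differed by 0.02.

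Of the genes of nucleotide supply 3 of 4 were lower, with a median of -0.30. It was -0.14 after a further quantile normalization, and with 1 array left out it ranged from -0.54 (without knockdown replicate 2) to -0.06 (without knockdown replicate 1). Rrm1, the large subunit of ribonucleotide reductase, had 8.63, 9.64 and 9.28 in knockdown samples and 9.37, 9.95, 9.52 and 9.27 in controls. Knockdown replicate 1 was the lowest array and the others lay within the control range, with a difference of -0.34 (SE 0.26). Its small subunit Rrm2 and thymidylate synthase Tyms differed by -0.28 (SE 0.24) and -0.33 (SE 0.31). Tk1, the thymidine kinase of the salvage route, went the other way, at 8.51, 7.87 and 7.76 in knockdown samples and 8.19, 8.04, 7.14 and 7.45 in controls. Its groups overlapped, and the difference of 0.35 (SE 0.30) was the highest of all members, while a second probe set differed by 0.47. In knockdown replicate 1 the probe set used for Tk1 was at its highest and Rrm1, Rrm2 and Tyms at their lowest, but the second Tk1 probe set, at 7.86 there, was highest in control replicate 2 (8.77).

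All 4 genes of chromatin assembly and histone supply were lower, with a median of -0.27, which was -0.13 without knockdown replicate 1 and -0.14 without control replicate 2. Slbp, which binds the stem-loop at the end of histone mRNA, had 8.085, 8.016 and 7.751 in knockdown samples and 8.091, 8.407, 8.645 and 8.233 in controls. All knockdown arrays lay below all controls, though narrowly for 8.085 and 8.091, and the difference was -0.39 (SE 0.16), or 76.1% of the control signal (adjusted p = 0.825 by limma). A second, dimmer probe set of Slbp differed by -0.31, and there the groups overlapped. Hells, a chromatin remodeller of dividing cells, had 6.78, 7.61 and 7.40 in knockdown samples and 7.55, 7.83, 7.61 and 7.24 in controls, a difference of -0.29 (SE 0.23). Chaf1a and Chaf1b, subunits of chromatin assembly factor 1, differed by -0.11 (SE 0.19) and -0.24 (SE 0.24).

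The arrays of 1 group differed from each other more than the groups did, and the members tended to move together. The median of the members, as the difference from the control mean, was -0.22, 0.16 and -0.26 in knockdown replicates 1, 2 and 3, and -0.06, 0.42, 0.08 and -0.32 in control replicates 1 to 4. The SD of this median between arrays of a group was 0.28, more than the median difference of -0.12 between the groups. Knockdown replicate 2 was the highest knockdown array for 34 of the 51 members (66.7%), against 50.5% of all genes of mean level 6 to 9. Control replicate 2 was the highest control for 34 of 51 (66.7%, against 27.6%), and control replicate 4 was the highest for 0 and the lowest for 32 (62.7%, against 31.3%). Control replicate 4 was also the array with the highest microglia markers and, among controls, the highest endothelial markers. Without control replicate 4 the members' median was -0.18. A setting added after the data were seen left out control replicate 4 and knockdown replicate 2 together. These were the lowest control and the highest knockdown array for most members, so that choice lowers the members' difference by construction. The median was then -0.37, with 45 of 51 members lower, against -0.19 and 4122 of the 6130 genes of mean level 6 to 9. Of the members 13 were lower at an unadjusted p under 0.05 by limma, where 8.17% of all genes were, and 0 passed over all genes. Without control replicate 4 and knockdown replicate 1 the median was -0.18, with 35 members lower.

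**Figure D3:**
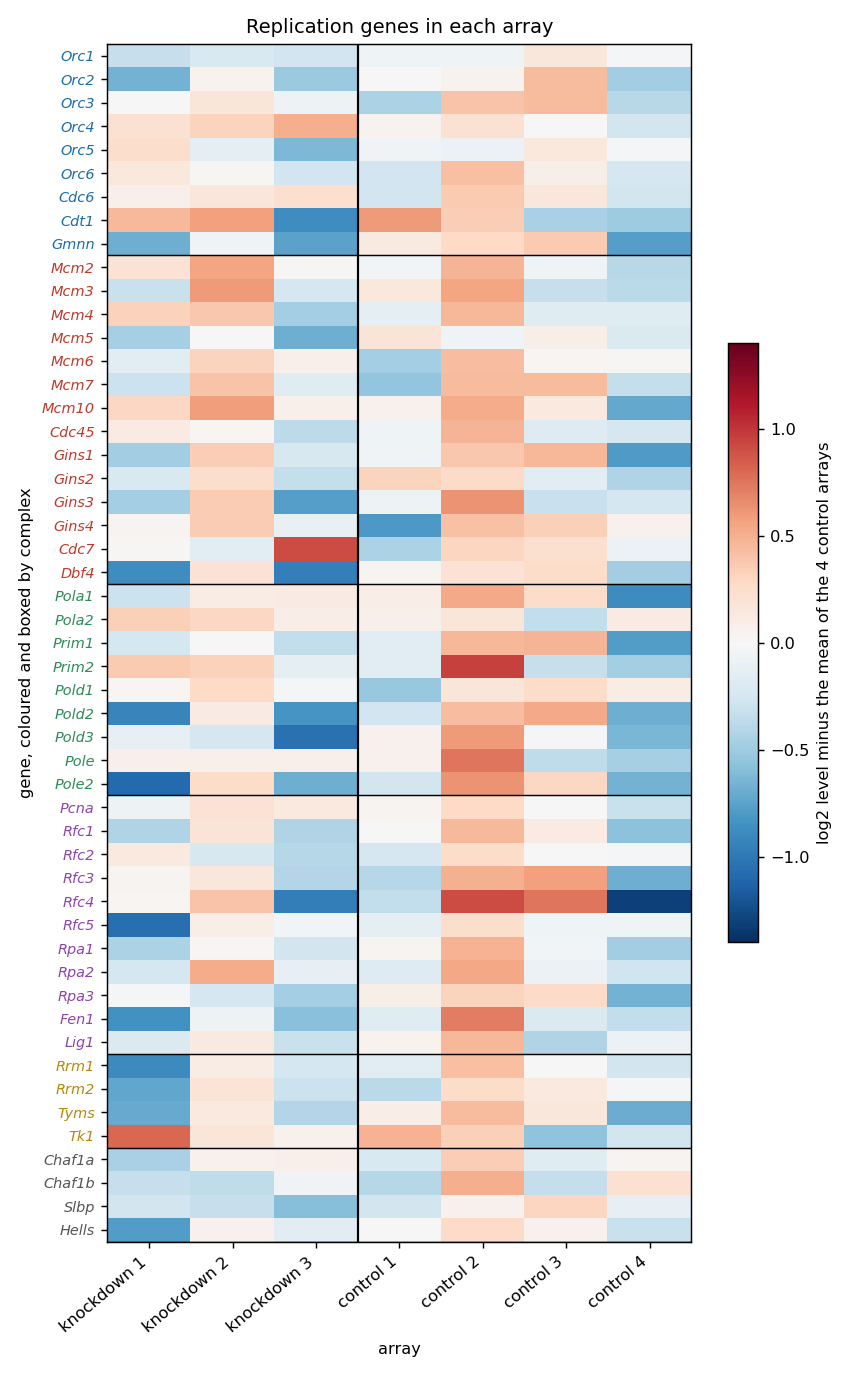
Log2 level minus the mean of the 4 control arrays (colour, red above and blue below) for 51 replication genes (rows, boxed by complex) in the 3 knockdown and 4 control arrays (columns). Control 2 is red for most genes and control 4 blue, with medians of 0.42 and -0.32, and the knockdown arrays have medians of -0.22, 0.16 and -0.26.

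The order of the arrays could also be followed within the complexes. Control replicate 4 was the lowest control for 7 of 9 polymerase genes, 8 of 11 clamp genes, 9 of 14 helicase genes, 5 of 9 licensing genes, 2 of 4 nucleotide supply genes and 1 of 4 chromatin genes, where control replicate 1 was the lowest for 3. Knockdown replicate 2 was the highest knockdown array for 12 of 14 helicase genes, 9 of 11 clamp genes, 3 of 4 nucleotide supply genes, 5 of 9 licensing genes, 4 of 9 polymerase genes and 1 of 4 chromatin genes. The difference between these complexes was not tested.

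Other genes of replication that are not among the 51 showed similar values. Of 48 such genes written in a list, 45 were measured, and 0 passed over all genes. The list had a median of -0.14, with 35 of 45 lower (64.4% of genes of mean level 6 to 9 were lower). At an unadjusted p under 0.05 by limma there were 3, all lower (6.67%, against 5.81% of all genes). They were Top1, Top2b and Dck. Top1, the topoisomerase that relieves twist ahead of the fork, had 9.28, 9.66 and 9.52 in knockdown samples and 9.78, 10.07, 10.01 and 9.78 in controls, a difference of -0.43 (SE 0.14). Top2b, a topoisomerase also made in neurons, differed by -0.33 (SE 0.135), the nucleoside kinase Dck by -0.68 (SE 0.28) and the ribonuclease subunit Rnaseh2a by -0.32 (SE 0.16). The list's median was -0.03 after a further quantile normalization. Leaving out 1 array gave -0.04 (knockdown replicate 1 or control replicate 2), -0.08 (knockdown replicate 3), -0.25 (control replicate 4) or -0.27 (knockdown replicate 2).

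The E2F, cyclin E and CDK2 genes, which control entry into S phase, had a median of -0.15, with 17 of 22 lower (64.4% of genes of mean level 6 to 9 were lower) and 1 at an unadjusted p under 0.05, a mark reached by 5.81% of all genes. That gene was Rb1, the pocket protein that holds E2F factors inactive, with 7.86, 8.25 and 8.23 in knockdown samples and 8.39, 8.84, 9.03 and 8.66 in controls. All knockdown arrays lay below all controls, as for 3.07% of all genes, with a difference of -0.62 (SE 0.18). E2f8, a repressive E2F factor, differed by -0.80 (SE 0.36), Cdk4 by -0.30 (SE 0.16) and Cdk2 by 0.37 (SE 0.24). The list's median was -0.06 after a further quantile normalization, and leaving out 1 array gave -0.03 (knockdown replicate 3), -0.08 (control replicate 2) or -0.24 (knockdown replicate 2).

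A list of G2 and M phase genes, the stages after replication, had 24 measured members. All were lower, with a median of -0.55, where 64.4% of genes of mean level 6 to 9 were lower, with a median of -0.11. The mitotic kinase gene Cdk1 alone had an unadjusted p under 0.05 by limma (difference -0.95, SE 0.33), where 5.81% of all genes did, and 0 passed over all genes. The spindle genes Prc1 and Ttk and the hyaluronan receptor gene Hmmr differed by -0.81 (SE 0.38), -0.79 (SE 0.40) and -1.28 (SE 0.62). By array, the list's median was -1.22, 0.24 and -0.55 in knockdown replicates 1 to 3 and -0.53, 0.36, 0.50 and -0.22 in control replicates 1 to 4. In knockdown replicate 1 the G2 and M phase median was below that of the replication genes (-0.22), and in control replicate 1 likewise (-0.53 against -0.06), whereas in control replicate 4 it was not (-0.22 against -0.32). Leaving out knockdown replicate 1 gave a G2 and M phase median of -0.20 with 19 of 24 lower, and leaving out knockdown replicate 2 gave -0.92, and 22 of 24 genes were lower after a further quantile normalization. The difference between the lists was not tested.

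**Figure D4:**
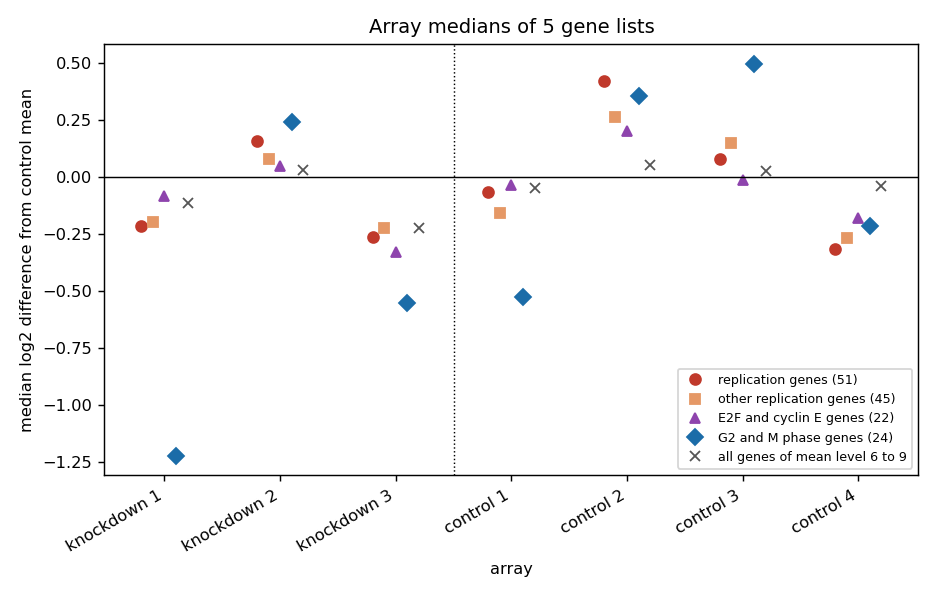
Median log2 difference from the control mean (y axis) in each array (x axis) for the 51 replication genes, 3 related gene lists and the genes of mean level 6 to 9. The replication medians lie between -0.32 and 0.42 in all 7 arrays, and the G2 and M phase medians between -1.22 and 0.50.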

How the data were processed

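Per the labels' protocols, DNase-treated total RNA of 7 samples was amplified and biotin-labelled with Nugen kits. The authors deposited log2 values, 1 column for each array; the submitters' processing notes name RMA and Affymetrix Expression Console 1.2. RMA includes a quantile step, which can hide a shift shared by most genes. No genome build was given in the sources used here. Of 35556 probe sets, a platform annotation gave 1 symbol for 21789, several for 1621 and none for 12146, with symbols updated through Entrez identifiers (21698 matched a RefSeq table of GRCm38.p6).

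The 2 groups were tested with limma 3.58.1 under R 4.3.3 (lmFit, eBayes without trend or covariates, two-sided, 5 residual and 2.36 prior degrees of freedom), with Benjamini-Hochberg adjustment over 19938 genes and a threshold of 0.05. P-values set the difference between the groups against the spread between these samples, which the fit takes as independent. On simulated data over 19938 genes, 200 of them changed, this fit found 47.4% of the genes given a log2 change of 1 and 83.6% of those given 2. It made 7 false calls per run on average. The simulation drew each gene independently of the others, while in the arrays the members tended to move together, so these shares may not hold for the arrays. Its changed genes were picked at random from all genes, whose median SE was 0.17, against 0.26 for the members. The shares may thus be lower for the members. For arrays no count depth applies, and their number limits the precision.

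The members and the gene lists were chosen with earlier results of these data known. Values are given in every array for the 12 members with the smallest p, and per complex for the member with the highest level and that with the largest difference, and for up to 4 genes of each other list. Pole and Cdc7 were added after their values were seen. Alternatives were other variance priors, array weights, 3 other scalings, 2 filters on dim genes, the mean over probe sets, a replicate block and leaving out each array.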

Additional observations from a re-analysis of the deposited data

Results flagged for a closer look

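Among 64 genes checked for a control array far from the other controls (the 51 members, 12 genes of other lists and Trnp1), 3 were picked out, where chance gives about 1 in 20. Orc1 had a log2 level of 4.673 in control replicate 3, with the next control at 4.484. Mcm4 had 8.245 in control replicate 2, with the next control at 7.649. Fen1 had 6.99 in control replicate 2, with the next control at 6.097. Control replicate 2 is also the control in which most replication genes were highest.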

How the results depend on the processing

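The count of 0 passing genes, among the members and over all genes, held in every setting run, including an adjusted p under 0.1. The smallest adjusted p over all genes was 0.168, without knockdown replicate 2. At an unadjusted p under 0.05 the members were 2 lower and 1 higher. They were 0 and 0 with an intensity trend and with the dimmest 25% or 50% of genes left out, 1 and 1 with the mean over probe sets, cyclic loess or a further quantile normalization, and 2 and 0 with array weights or equal array medians. Same-numbered samples correlated at 0.062, 0.026 and -0.025 in their deviations over all genes, and differently numbered ones at -0.089 to 0.082. The labels do not say whether the numbers mark a pairing, and correlations over all genes cannot decide it. With the replicate block the counts were 11 and 0, against 2 and 0 on the same 6 arrays unpaired, and with control replicate 4 left out together with knockdown replicate 2 or 1 they were 13 and 0, and 3 and 0 (these and the unpaired fit were added after the data were seen). In those 4 fits 4.22%, 3.62%, 8.17% and 2.54% of all genes were lower at the same mark. Control replicate 4 and knockdown replicate 2 were the lowest control and the highest knockdown array for most members. Leaving out both lowers the members' difference by construction. With 1 array left out in turn the lower count ranged from 0 to 3 and the higher from 0 to 2. The members' median, -0.12, ranged from -0.37 to 0.007 and moved by less than the SD of 0.28 between arrays in each setting. The value of Orc6 turned to 0.11 and 0.13 with a further quantile and a cyclic loess normalization, 0.08 without knockdown replicate 3 and 0.11 without control replicate 2. Mcm6 turned to -0.019 with array weights, -0.04 without knockdown replicate 2, -0.082 without control replicate 1, and -0.034 when knockdown replicate 2 and control replicate 4 were both left out. Pcna turned to -0.016 with the replicate block, on the same arrays unpaired and without control replicate 4. It was -0.074 when knockdown replicate 2 was left out as well. With 1 array left out in turn, Orc6 ranged from -0.125 to 0.106, Mcm6 from -0.082 to 0.223 and Pcna from -0.016 to 0.179. Beyond the arrays left out, the cause was not tested. Trnp1 kept its direction, from -0.47 to -0.31.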

Other observations

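Pole was 1 of 53 genes (0.266% of 19938) whose deposited values, given to 3 decimals, were equal in all 3 knockdown arrays. Any 2 equal values among the 7 arrays occurred in 24.6% of all genes and in 5 of the 51 replication genes (9.80%), namely Orc1, Orc2, Dbf4, Pole and Hells. In Orc2 and Dbf4 the equal pair was knockdown replicate 2 and control replicate 2, at 6.897 and 8.083. Slbp, Tk1 and Pcna had a second probe set with a difference of the same sign, while that of Rpa3 had the opposite sign.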
